A study of Rattus norvegicus with 2 samples.

Results

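The regions described here are the broad Sox10 peaks: intervals of at least 1500 bp on chromosomes 1 to 20 in a peak list from chromatin immunoprecipitation followed by sequencing (ChIP-seq). There were 878 of them among 38028 Sox10 peaks on those chromosomes (2.31%) and 38915 in the whole list. They covered 1.89 Mb, or 6.82% of all bases under Sox10 peaks on these chromosomes. Membership was decided by the width of the Sox10 call alone, so width, and the Sox10 caller score that comes from the same library, are given as description. Chd7 peaks come from a second library, whose values the rule does not use.

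Both libraries were made from primary oligodendrocyte progenitors of Sprague Dawley rats, induced to differentiate for 3 days with T3, a thyroid hormone, and all cells shared this treatment. One chromatin sample was precipitated with an antibody against Chd7 and one with an antibody against Sox10. There was 1 library per antibody, so no value has a replicate error and no test between conditions can be made. Intervals are 95% exact binomial limits over peaks, or Newcombe limits for a difference between shares. They cover counting error only, and peaks of one library are not replicates. The lists hold peaks only, without read depth or expression values, and the labelled cell type was not checked against markers here. No source used here gives the age or number of the animals.

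Sox10 is a transcription factor with an HMG-box DNA-binding domain that is required for oligodendrocytes to differentiate and to express myelin genes. Chd7 is an ATP-dependent chromatin remodeler whose loss of function causes CHARGE syndrome. By its title, the study concerns the joint action of both proteins in the timing of myelination. A peak call is an interval of read enrichment, and its ends alone do not say whether a wide interval holds a single binding site or several. The position of Chd7 calls inside the wide Sox10 intervals is a second view of how those intervals are occupied.

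The broad peaks ranged from 1500 to 9291 bp, with a median of 1747.5 bp (quartiles 1598 and 2127 bp). Most were only a little over the limit: 442 measured 1500 to 1749 bp, 173 measured 1750 to 1999 bp, 119 measured 2000 to 2499 bp, 44 measured 2500 to 2999 bp and 100 measured 3000 bp or more. Just inside the limit, 28 peaks less than 10 bp over it included 12 with a Chd7 peak. Just outside, 29 peaks at most 10 bp short of it included 9. The comparison class, Sox10 peaks from 1000 bp to under 1500 bp, had 4287 peaks with a median width of 1136 bp. Sox10 scores of broad peaks ran from 50.1 to 3100, in a list that ran from 50 to 3104.2. Their median was 421 (quartiles 194 and 908), against a median of 359 in the comparison class. The caller score is the authors' value, on a scale that the list does not state. Broad peaks scoring under 200 made up 26.0% of the class, close to the 27.1% of the comparison class.

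Broad Sox10 peaks carried a Chd7 peak more often than the next narrower class, and carried several far more often. Of the 878 broad peaks, 363 overlapped at least 1 Chd7 peak by 1 bp or more, or 41.3% (38.1% to 44.7%), where the share over all Sox10 peaks on these chromosomes was 15.9%. Among peaks from 1000 bp to under 1500 bp it was 1357 of 4287, or 31.7% (30.3% to 33.1%). The difference was 9.69 percentage points (6.18 to 13.3). By number, 515 broad peaks held no Chd7 peak, 281 held 1, 71 held 2, 9 held 3 and 2 held 4. In the comparison class 2930 held none, 1300 held 1 and 57 held 2, with none above 2. A number of 2 or more was thus reached by 82 broad peaks, or 9.34% (7.50% to 11.5%), and by 1.33% (1.01% to 1.72%) of the comparison class, a difference of 8.01 points (6.22 to 10.1). Over all Sox10 peaks this share was 0.421%. Counting only Chd7 peaks with a score of at least 100, the share was 2.28% of broad peaks. The other classes were not counted at that score, so this value cannot be set against theirs. In all, 458 Chd7 peaks lay in broad Sox10 peaks, 3.13% of the 14624 Chd7 peaks on these chromosomes, and no Chd7 peak was shared by a broad peak and a peak of the comparison class.

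Per length, broad peaks were not richer in Chd7 over all Sox10 scores together. They held 0.243 Chd7 peaks per kb and the comparison class 0.282, a ratio of 0.861 (0.773 to 0.957, counting error only). With Chd7 scores of at least 100 it was 0.931 (0.797 to 1.08), limits that include 1. The order turned with Sox10 score. At Sox10 scores from 50 to 100 broad peaks held 0.260 Chd7 peaks per kb and the comparison class 0.129. From 100 to 200 these rates were 0.231 and 0.101. Broad peaks had the lower rate from 200 to 400 (0.163 against 0.201), from 400 to 800 (0.231 against 0.373) and from 800 upward (0.321 against 0.511). When the search was limited to Chd7 centres in the central 1000 bp of each Sox10 peak, the classes were nearly level over all Sox10 scores together. The shares were 31.9% (28.8% to 35.1%) for broad peaks and 31.4% (30.1% to 32.9%) for the comparison class, beside 15.6% over all Sox10 peaks. The difference of 0.447 points had limits of -2.86 and 3.89. By Sox10 score the classes were not level. At scores from 50 to 100 the central share was 29.6% for broad peaks and 11.6% for the comparison class. From 100 to 200 it was 22.3% against 10.0%. The order was the other way from 200 to 400 (17.9% against 22.6%), from 400 to 800 (32.7% against 42.5%) and from 800 upward (48.0% against 58.7%). Over all scores, Chd7 only away from the middle was more common in broad peaks. Of the 363 broad peaks with Chd7, 83 (22.9%) had no Chd7 centre in the central 1000 bp, against 9 of 1357 (0.663%) in the comparison class. Peaks of that class extend less than 250 bp beyond the central window on each side. In bases the order over all scores was the opposite of that in peaks per kb. Chd7 peaks covered 19.6% of the length of broad peaks and 13.5% of the comparison class, but this came from the widest members: the covered length was 35.1% in the 144 members of 2500 bp or more and 12.5% in the other 734. The Chd7 peaks in broad intervals were wider, with a median of 562.5 bp against 449.5 bp.

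The higher share belonged to the widest intervals. Broad peaks of 1500 to 1749 bp overlapped Chd7 in 34.4% of cases (29.97% to 39.0%) and those of 1750 to 1999 bp in 33.5% (26.5% to 41.1%), values near the 35.4% (32.6% to 38.2%) of Sox10 peaks of 1250 bp to under 1500 bp. At 2000 to 2499 bp the share was 41.2% (32.2% to 50.6%), at 2500 to 2999 bp 56.8% (41.0% to 71.7%) and at 3000 bp or more 79.0% (69.7% to 86.5%). Split at 2500 bp, the 734 narrower members differed from the comparison class by 3.63 points, with limits of -0.022 and 7.42 that include 0. The 144 wider members differed from it by 40.6 points (32.6 to 47.4). The share with 2 or more Chd7 peaks climbed through the same classes from 3.17% at 1500 to 1749 bp to 39.0% (29.4% to 49.3%) at 3000 bp or more. Chd7 peaks per kb stayed between 0.211 and 0.272 over the 5 classes of broad peaks.

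**Figure D1:**
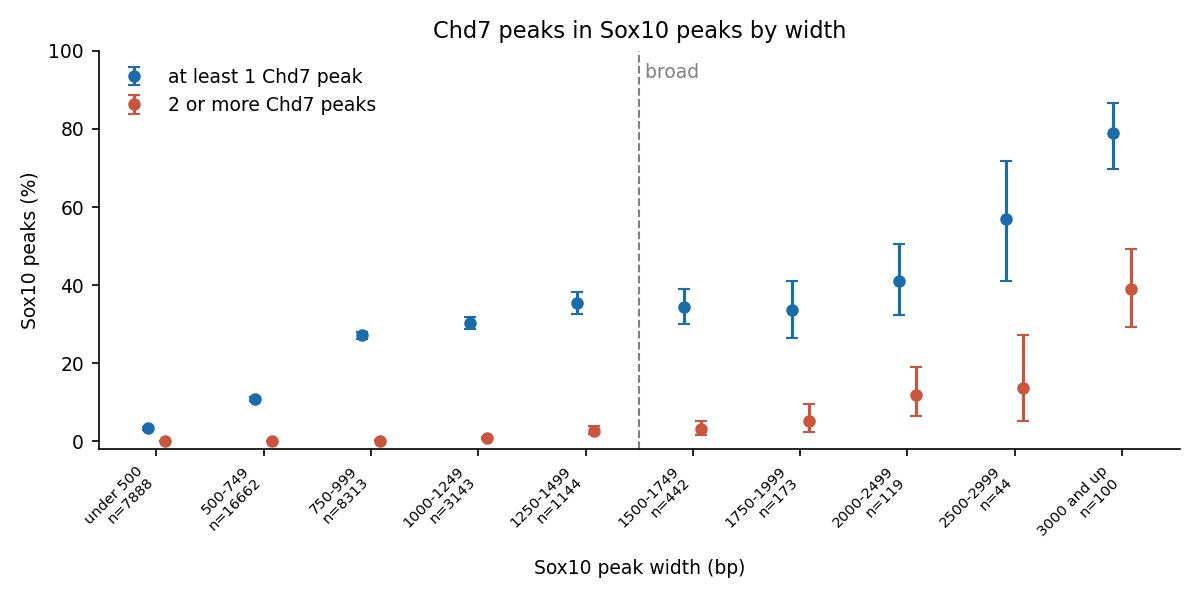
Share of Sox10 peaks (%, vertical axis) that overlap at least 1 Chd7 peak (blue) or 2 or more (red), by Sox10 width in bp; points are shares and bars 95% exact binomial intervals, with the number of peaks under each class. The blue share is level from 1250 to 1999 bp, between 33.5% and 35.4%, and reaches 79.0% at 3000 bp or more, where the red share is 39.0%.

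Chd7 peaks did not keep to the middle of broad Sox10 peaks. The Chd7 centre lay a median of 362 bp from the Sox10 centre (quartiles 189.5 and 709.9 bp), against 113.75 bp in the comparison class. Of the 458 Chd7 peaks in broad intervals, 70 were centred within 100 bp of the Sox10 centre (15.3%) and 159 within 250 bp (34.7%). In the comparison class these shares were 44.9% and 83.7%. On a scale from 0 at the Sox10 centre to 1 at its edge, the median position was 0.38 in broad peaks (quartiles 0.17 and 0.58) and 0.20 in the comparison class. Centres spread evenly along a peak would have a median of 0.5. With each side of the peak cut into 3 equal parts, 47.2% of Chd7 centres lay in the inner part, 37.6% in the middle part and 13.3% in the outer part, and 9 of the 458 centres fell beyond the edge. The parts of the comparison class held 73.9%, 24.2% and 1.63%. The sides were nearly even, with 239 of 458 centres (52.2%) toward the higher coordinate.

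A Chd7 peak has a width of its own, so its centre cannot reach the edge of the Sox10 peak while the whole call stays inside. Of the Chd7 peaks in broad intervals 94.5% (433) lay wholly inside, and in the comparison class 97.2% (1374). For these, the offset was divided by the room left for a peak of that width, so that 1 means flush with an edge. The median was then 0.53 in broad peaks (95% limits of the median 0.50 and 0.57) and 0.33 in the comparison class. Over 5 equal steps from centre to edge, the broad peaks held 20.1%, 16.4%, 21.9%, 21.0% and 20.6% of their Chd7 peaks, each within counting error of an even spread. Without the 1 Mb windows dense in Chd7 (those with 30 or more Chd7 peaks), the spread was less even. The steps then held 20.4%, 16.7%, 24.8% (20.2% to 29.8%), 24.1% (19.6% to 29.2%) and 13.9% (10.3% to 18.2%). The limits of the middle step lay above an even spread and those of the outermost step below it. The comparison class held 29.5% in the innermost step and 5.09% in the outermost (3.99% to 6.39%). Over all Sox10 scores its Chd7 peaks thus crowded to the middle, while those of broad peaks were found at all distances. At Sox10 scores from 50 to 100 the medians over the room left were nearly level, 0.59 against 0.58 in broad peaks. From 100 to 200 they were 0.49 and 0.65, from 200 to 400 0.39 and 0.54, and from 800 upward 0.28 and 0.51. By Sox10 width the median was 0.31 from 1000 bp to under 1250 bp and 0.40 from 1250 bp to under 1500 bp. It was 0.50 at 1500 to 1749 bp and 0.46 at 1750 to 1999 bp.

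**Figure D2:**
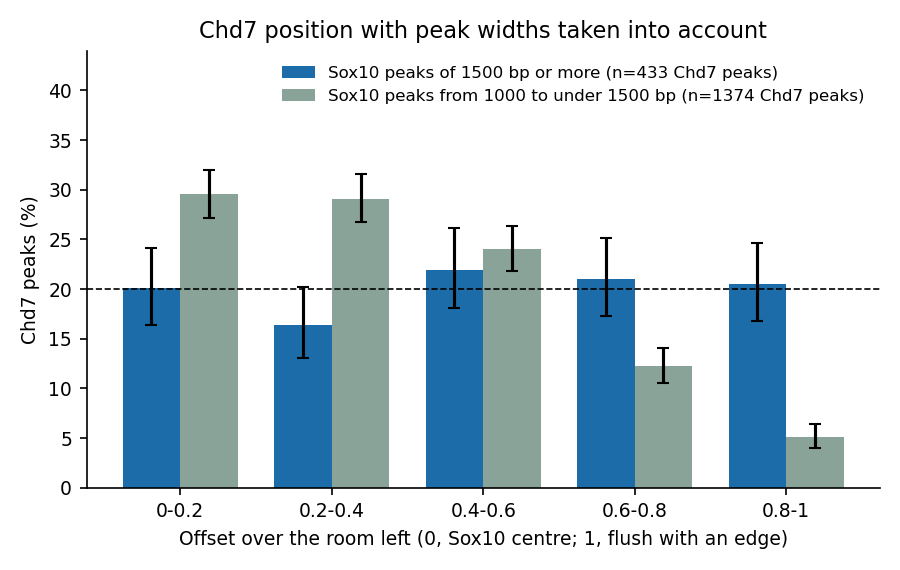
Share of Chd7 peaks (%, vertical axis) by their offset from the Sox10 centre over the room left (horizontal axis, 0 at the centre and 1 flush with an edge), for the 433 Chd7 peaks wholly inside broad Sox10 peaks (blue) and the 1374 inside peaks from 1000 bp to under 1500 bp (grey-green). Bars carry 95% exact binomial intervals and the dashed line marks an even spread; the blue bars run from 16.4% to 21.9%, while the other class falls from 29.5% to 5.09%.

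Position moved outward with width. The median distance between centres was 257 bp for Sox10 peaks of 1500 to 1749 bp, 323 bp at 1750 to 1999 bp, 431.5 bp at 2000 to 2499 bp, 579 bp at 2500 to 2999 bp and 952 bp at 3000 bp or more. Some increase follows from the longer intervals. Over the room left, the median was 0.50 in members under 2500 bp and 0.68 in the wider ones. The Chd7 peaks were themselves wider there, with a median of 474.5 bp under 2500 bp and 914 bp above it.

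**Figure D3:**
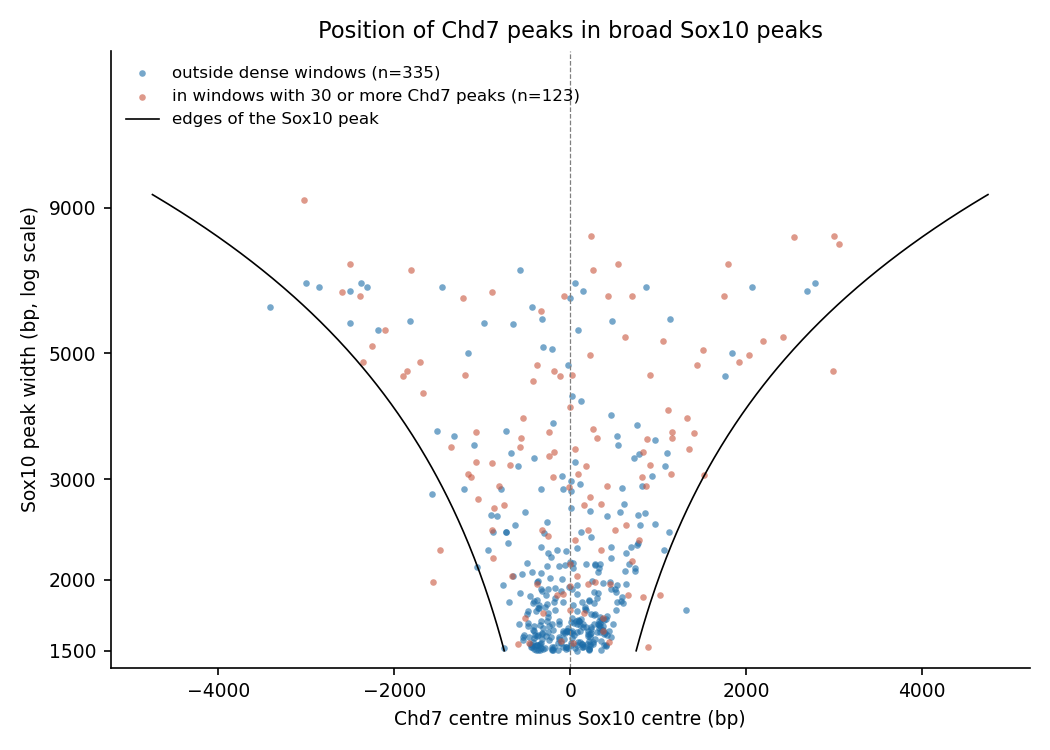
Distance of each Chd7 centre from the Sox10 centre in bp (horizontal axis) against the width of the broad Sox10 peak in bp (vertical axis, log scale) for all 458 Chd7 peaks; black lines are the Sox10 edges. Blue points lie outside and red points inside 1 Mb windows with 30 or more Chd7 peaks (335 and 123 points), and both colours fill the space between the edges rather than a line at 0.

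Where a broad Sox10 peak held several Chd7 peaks, these usually stood on both sides of its centre. This was so in 65 of the 82 members with 2 or more (79.3%). Chd7 peaks of the list do not overlap each other, so several in an interval cannot all lie at its centre. The share that such spacing alone would give was not calculated. From the first to the last Chd7 centre such a group spanned a median of 1234 bp (quartiles 785 and 1841 bp), and adjacent centres were a median of 1080 bp apart over 95 steps. The Chd7 centre nearest to the middle was still a median of 320 bp away from it, and came within 100 bp in 11 of the 82. In the 281 members with exactly 1 Chd7 peak, the median position was 0.29 from centre to edge, against 0.49 in members with 2 or more. For Chd7 peaks wholly inside, the medians over the room left were 0.48 and 0.65. The room left is reckoned for each Chd7 peak as if it were alone, so the same limit holds for these positions. The single Chd7 peaks were centred a median of 280.5 bp from the middle. Members with several Chd7 peaks were wider, with a median of 2797.5 bp against 1765 bp for those with 1 and 1701 bp for those with none. Their median Sox10 score was lower, at 263, against 623 and 377. Of the members with several, 42.7% lay in the windows dense in Chd7, against 16.4% and 8.16%. Broad peaks in those windows had a median Sox10 score of 119, and those outside 508. The part of the windows in the score contrast was not tested.

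A larger fraction of the broad Sox10 peaks than of the comparison class lay in the few regions of the genome that are dense in Chd7 peaks. Of the 1 Mb windows on these chromosomes, 26 held 30 or more Chd7 peaks. They contained 123 of the 878 broad peaks (14.0%), 2.59% of the comparison class and 1.59% of all Sox10 peaks. Among the 100 members of 3000 bp or more, 55 lay there. In these windows 65.9% of broad peaks overlapped Chd7 (56.8% to 74.2%), and in the rest of the genome 37.4% (33.9% to 40.9%). The windows are defined by their Chd7 peaks, so the first share is raised by that choice and the second lowered. Leaving them out took away 14.0% of broad peaks but 2.59% of the comparison class, so the choice did not act on both classes equally. With that limit, the difference from the comparison class outside the windows was 5.91 points (2.24 to 9.68). The share with 2 or more Chd7 peaks was 6.23% (4.61% to 8.19%) against 1.15% (0.849% to 1.52%), and the median position over the room left was 0.51 against 0.33. The wide members kept a high share there: 50 of the 75 members of 2500 bp or more outside the windows held Chd7, or 66.7% (54.8% to 77.1%).

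The relation between Sox10 score and Chd7 differed in shape between the classes. In the comparison class the share with Chd7 was lowest in weak peaks, 12.8% at scores from 50 to 100 and 10.6% from 100 to 200, and it was 58.7% from 800 upward. Broad peaks had a high share at both ends: 48.0% (37.8% to 58.3%) at scores from 50 to 100, 27.2% (21.1% to 34.0%) from 200 to 400, and 53.6% (47.2% to 59.9%) from 800 upward. At scores under 100 the broad class stood 35.2 points above the comparison class (24.8 to 45.4), and from 100 to 200 it stood 27.0 points above (18.9 to 35.8), or 14.6 points (6.29 to 24.9) without the windows dense in Chd7. From 200 to 400 the difference was 4.53 points (-1.74 to 11.6), or 0.871 points (-5.29 to 8.03) without those windows. From 400 to 800 it was -3.45 points (-10.5 to 3.93) and from 800 upward -5.08 (-12.1 to 1.91), again limits that include 0. Over all peaks with a Sox10 score of at least 200, the classes differed by 1.87 points (-2.23 to 6.05). Without the windows dense in Chd7, the weakest broad peaks still had a share of 34.6% (22.0% to 49.1%; 18 of 52) against 6.71% (4.15% to 10.2%; 20 of 298). Weak broad peaks were also the widest, with a median of 2264.5 bp under a score of 100 and of 1703.5 bp from 800 upward. The part of width in the score pattern was not tested.

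**Figure D4:**
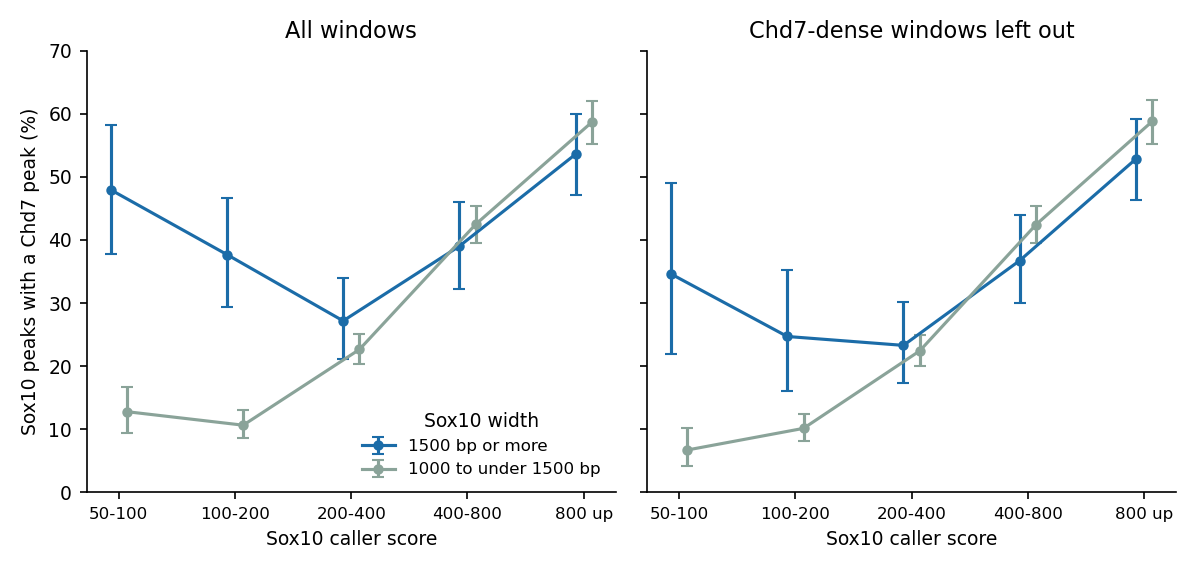
Share of Sox10 peaks with a Chd7 peak (%, vertical axis) by Sox10 caller score (horizontal axis, 5 classes) for broad peaks (blue) and peaks from 1000 bp to under 1500 bp (grey-green), over all windows (left) and without 1 Mb windows holding 30 or more Chd7 peaks (right); bars are 95% exact binomial intervals. Under a score of 200 the blue points lie above the others in both panels (48.0% against 12.8% at 50 to 100 on the left), and from 200 upward the intervals overlap.

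The widest members are described by position on build rn5, counted from 1. The widest of all, on chromosome 16 at 21950524 to 21959814 (9291 bp, Sox10 score 117), held 1 Chd7 peak of 2007 bp that began 611 bp inside the lower edge. Its neighbour at 21927956 to 21935729 (7774 bp) had 1 Chd7 peak 402 bp from the upper edge, and another at 21995634 to 22003034 (7401 bp, Sox10 score 57.2) had none. On chromosome 14, the peak at 94342429 to 94350477 (8049 bp) held 2 Chd7 peaks, the stronger of which (score 556) ended 50 bp before the upper edge. On chromosome 1, the peak at 56890408 to 56898399 (7992 bp) held 1 Chd7 peak of 2356 bp that ended 270 bp before the upper edge. In each of the 4 peaks just named that had Chd7, the Chd7 peak nearest an edge was centred between 2548 and 3058.5 bp from the Sox10 centre. Choosing the peak nearest an edge of so long an interval favours a large distance. The other Chd7 peak of the 8049 bp interval was centred 240.5 bp from the Sox10 centre.

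A pair of very wide calls stood side by side on chromosome 7, 267 bp apart. The one at 527768 to 534940 (7173 bp, Sox10 score 683) held 3 Chd7 peaks, and the one at 535208 to 542869 (7662 bp, score 51.6) held none. The last of the 8 widest, on chromosome 18 at 38068595 to 38075599 (7005 bp, score 517), differed from the rest of this group in 2 ways. It was the only one outside the windows dense in Chd7, and a single Chd7 peak of 5410 bp (score 1086) covered most of it.

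The members with the most Chd7 peaks showed them strung along the interval. On chromosome 2 at 216575910 to 216582448 (6539 bp, Sox10 score 146), 4 Chd7 peaks had scores of 50.8, 452, 154 and 237 in order of position. The first 3 were centred on the lower side of the Sox10 centre and the last lay 2065.5 bp above it, with no Chd7 centre within 1000 bp of it. On chromosome 6 at 39310834 to 39317148 (6315 bp, score 625), another 4 Chd7 peaks included one centred 68 bp from the Sox10 centre. On chromosome 3 at 140017421 to 140023863 (6443 bp, Sox10 score 2170), a Chd7 peak of 4231 bp (score 241) occupied the middle, and peaks of 982 and 818 bp stood on either side of it, 225 and 119 bp short of the edges. The peaks on chromosomes 2 and 3 lay outside the windows dense in Chd7, and the one on chromosome 6 inside. Others with 3 Chd7 peaks were on chromosome 7 at 22556124 to 22560954 and on chromosome 1 at 56427656 to 56432302. In both, a Chd7 call ran past the upper end of the Sox10 peak, by 36 and 2084 bp. On chromosome 7, another of the Chd7 calls ran 229 bp past the lower end.

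**Figure D5:**
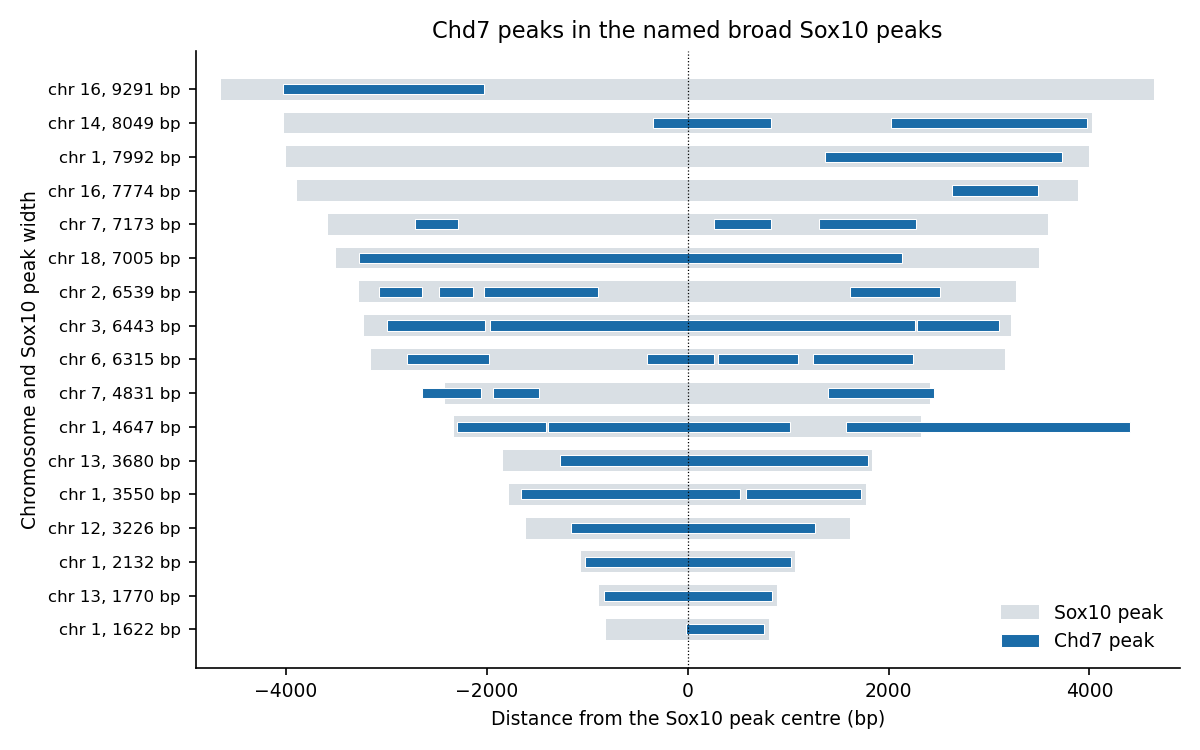
Maps of the 17 named broad Sox10 peaks that hold Chd7, drawn to scale and aligned at the Sox10 centre (horizontal axis, distance in bp; vertical axis, chromosome and Sox10 width); grey bars are Sox10 peaks and blue bars Chd7 peaks. The widest member, 9291 bp, has 1 Chd7 peak on 1 side, while the 6539 bp and 6315 bp members each have 4 along their length.

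In the 6 broad peaks with the highest Chd7 scores, the strongest Chd7 call covered from 48.3% to 96.0% of the Sox10 interval. On chromosome 13, a Sox10 peak of 3680 bp at 38637809 to 38641488 (score 1170) held a Chd7 peak of 3068 bp with the highest score of that list, 3100. Nearby, the Sox10 peak at 38666835 to 38668604 (1770 bp) and its Chd7 peak of 1682 bp (score 2287) had centres 3 bp apart. On chromosome 1, a Sox10 peak of 2132 bp at 187935204 to 187937335 held a Chd7 peak of 2046 bp (score 2178) with centres 1 bp apart. Also on chromosome 1, the Sox10 peak at 187661318 to 187664867 (3550 bp) held 2 strong Chd7 peaks, of scores 2904 and 1953. At 187598297 to 187599918 (1622 bp, Sox10 score 150) a Chd7 peak of score 3100 was offset by 372 bp and ended 47 bp from the upper edge. Of these 6 members, the one on chromosome 12 at 1487883 to 1491108 (Chd7 score 3021) lay outside the dense windows.

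Strong and broad Sox10 binding also occurred without any Chd7 call. Of the 250 broad peaks scoring 800 or more, 116 had none, and of the 801 such peaks of the comparison class 331 had none. The shares with Chd7 were 53.6% and 58.7%, a difference of -5.08 points (-12.1 to 1.91). Of the 14 with a score of 3100, the highest among broad peaks, 11 had a Chd7 peak. The remaining 3 were on chromosome 1 at 154720417 to 154723410 (2994 bp) and 225874351 to 225876329 (1979 bp), and on chromosome 9 at 9792499 to 9794172 (1674 bp). The next in order had scores of 2577 on chromosome 9 at 92167120 to 92168947, 2480 on chromosome 12 at 24244972 to 24246613, and 2317 on chromosome 14 at 83039279 to 83040791. None of these 6 lay in a window dense in Chd7 or had a Chd7 peak within 1 kb of its edges. Absence of a call says only that no Chd7 peak passed the list's lowest score of 50.

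Chd7 calls just beside a Sox10 peak, within 1 kb but not overlapping, were more frequent around broad peaks. They were found at 59 of 878, or 6.72% (5.15% to 8.58%), against 2.22% (1.80% to 2.70%) in the comparison class and 1.95% of all Sox10 peaks. The difference was 4.50 points (2.95 to 6.40), and outside the dense windows 2.69 points (1.38 to 4.43). Members of 2500 bp or more had such a neighbour in 16.7% of cases. Of the 515 broad peaks without an overlapping Chd7 peak, 486 also had none within 1 kb. Broad peaks were closer to other Sox10 peaks too: the nearest lay within 1 kb for 19.4%, against 12.5% in the comparison class. Among broad peaks, such a close Sox10 neighbour was present for 23.1% of those without Chd7 and 14.0% of those with it.

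Broad peaks occurred on all 20 chromosomes, making up from 1.57% of Sox10 peaks on chromosome 6 to 3.57% on chromosome 7. Their share with Chd7 exceeded that of the comparison class on 18 of the 20, the exceptions being chromosomes 10 (23.5% against 26.5%) and 17 (29.6% against 33.5%). The largest differences were on chromosome 20 (52.6% of 19 broad peaks against 25.6%), chromosome 14 (57.6% of 33 against 32.9%) and chromosome 16 (55.3% of 38 against 30.8%). Without the dense windows the difference was positive on 15 chromosomes, and on chromosome 16 it was 7.51 points in place of 24.5.

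Some megabases held many broad peaks. Of 561 windows of 1 Mb with a broad peak, 407 had 1 and 20 had 5 or more, and 12 of these 20 were among the windows dense in Chd7. Chromosome 16 from 21 to 22 Mb had 15 broad peaks with a median width of 4469 bp and a median Sox10 score of 92.8, and 12 of them held Chd7. Chromosome 7 from 22 to 23 Mb also had 15, of which 9 held Chd7. Chromosome 15 from 9 to 10 Mb had 54 Chd7 peaks, yet 1 of its 6 broad Sox10 peaks overlapped one. Windows with many broad peaks but few Chd7 peaks existed as well: chromosome 4 from 224 to 225 Mb had 5 broad peaks with a median Sox10 score of 805 and 5 Chd7 peaks, and 3 of the broad peaks held Chd7.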

How the data were processed

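Peaks of 1 Chd7 and 1 Sox10 ChIP-seq library were used as the authors deposited them, each peak having both ends and a score from the caller. The submitters' processing notes name CASAVA, Bowtie2 and MACS, and rn5 as the genome build. Not given in the sources used here are versions, settings, filters and whether a control library was used. The deposited score is at least 50 in both lists, its scale is not stated, and the lists give no depth. Peak width depends on caller settings and depth.

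Widths are end minus start. A Chd7 peak counted as inside when it overlapped by at least 1 bp. Counts for broad peaks were identical to those of bedtools 2.31.1, and the counting was also tested on simulated data with planted Chd7 peaks. Scripts ran under Python 3.11.15 with scipy 1.17.1 and pandas 2.3.3. No test was made, since there is 1 library per antibody. Named regions were the 8 widest members, and 6 each with the most Chd7 peaks, with the strongest Chd7 peak, and with the highest Sox10 score but no Chd7. Members, classes and lists were chosen with earlier results of these data known. The score classes, the split at 2500 bp, the peaks beside Sox10 peaks and the windows with 5 or more broad peaks were added after the values were seen. An rn5 sequence and annotation were not used here, so no region is assigned to a gene and no sequence is shown.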

Additional observations from a re-analysis of the deposited data

How the results depend on the processing

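Of 48 alternative values over 5 results, 23 stayed within the counting limits of the reported value and 25 moved beyond them. Among these 48, no difference or ratio between the classes changed direction. A value not among them did: the difference in the central 1000 bp without windows dense in Chd7 was -0.328 points (-3.83 to 3.33). Directions within classes of Sox10 score also differed, as given above. The share of broad peaks with Chd7 (41.3%) was 23.3% with Chd7 scores of at least 100, 58.2% with a width limit of 2000 bp, 36.5% without peaks of 3000 bp or more, 37.4% without windows of 30 or more Chd7 peaks, 37.7% without windows of 5 or more broad peaks and 31.9% in the central 1000 bp. The difference from the comparison class (9.69 points) was in the same order of settings 8.19, 26.5, 4.85, 5.91, 6.12 and 0.447 points. It was 1.87 points (-2.23 to 6.05) with Sox10 scores of at least 200, 7.61 points as a mean within quartiles of Sox10 score, and 2.10 points within such quartiles without windows dense in Chd7. By quartile, weakest first, it was 31.1, 7.51, -3.58 and -4.58 points over all windows, and 19.2, 0.523, -6.43 and -4.94 without the dense ones. The share with 2 or more Chd7 peaks (9.34%) was 2.28% with the stricter Chd7 list, 6.92% with the stricter Sox10 list, 22.4% at 2000 bp, 5.53% without peaks of 3000 bp or more, 6.23% and 7.09% without either kind of window, and 1.94% in the central 1000 bp. The ratio of Chd7 peaks per kb (0.861) was 0.702 with the stricter Sox10 list, 0.931 (0.797 to 1.08) with the stricter Chd7 list and 0.926 (0.800 to 1.07) at 2000 bp. The median position (0.38) was 0.32 with the stricter Chd7 list, 0.43 at 2000 bp, 0.29 with exactly 1 Chd7 peak and 0.53 over the room left, which is on the other side of the even value of 0.5. The cause of these shifts was not tested. The windows with 5 or more broad peaks, and the quartiles without dense windows, were added after seeing the data. No replicate could be left out, and no paired analysis was possible because there is a single library of each kind. Sites below the lowest score of 50 cannot be seen.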

Other observations

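Wide Chd7 calls, like Chd7 peaks of all widths, lay mainly away from Sox10. Those that met Sox10 did so mostly in broad Sox10 peaks. On chromosomes 1 to 20, 158 Chd7 peaks were at least 1500 bp wide, and 81 of them lay in the 1 Mb windows with 30 or more Chd7 peaks. The share of all Chd7 peaks in such windows was not counted. Over all 14624 Chd7 peaks on these chromosomes, 6208 overlaps with a Sox10 peak were counted. A Sox10 peak of any width overlapped 53 of the 158 wide ones (33.5%). For 52 of these 53 it was a broad Sox10 peak, and 1 overlapped a Sox10 peak from 1000 bp to under 1500 bp. A Chd7 peak of this width is itself wider than any Sox10 peak of the comparison class, which limits where it can lie wholly inside.

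The X chromosome, which the rule for broad peaks leaves out, had 14 Sox10 peaks of 1500 bp or more, and 6 of them overlapped a Chd7 peak. The unplaced sequences and the mitochondrial genome had 0 such Sox10 peaks.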
